A study of Mus musculus with 8 samples.

Results

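The 10 genes described here encode the 4 kinases of the translation initiation factor eIF2alpha, the 2 phosphatase subunits that reverse their work, and the transcription factor ATF4 with 3 of its targets. They were chosen by symbol from the 24015 gene symbols of the count tables, and all 10 were found and had enough counts to be tested among 12128 tested genes. The cells were wild type MEFs, fibroblasts cultured from C57bl/6 mouse embryos of stage E12.5 and kept to passages 15 to 18. RNA was sequenced from 2 untreated libraries and from 2 libraries of cells given 100 units/mL of recombinant mouse interferon-beta (IFN-beta), an antiviral cytokine, for 6 h. Whether the libraries of a group stem from different cultures is not stated in the labels, and the p-values rest on their spread alone, which could be a technical one. The 4 chromatin samples of the series were not analysed here.

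Phosphorylation of eIF2alpha slows the start of protein synthesis in general and lets a few messages, that of ATF4 among them, be translated more. Each of the kinases answers another stress: PKR (Eif2ak2) binds double-stranded RNA, HRI (Eif2ak1) senses lack of heme and mitochondrial stress, PERK (Eif2ak3) senses misfolded protein in the endoplasmic reticulum, and GCN2 (Eif2ak4) senses lack of amino acids. ATF4 then raises transcription of further factors and enzymes, and of Ppp1r15a (GADD34), which brings protein phosphatase 1 to eIF2alpha and closes the loop. PKR is a well-known product of interferon-stimulated transcription and part of the antiviral state. Transcript levels were measured here, and neither phosphorylation of eIF2alpha nor protein was.

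Eif2ak2 was the 1 member whose promoter carried a match to the interferon-stimulated response element (ISRE) and whose transcript passed the test, so its promoter is shown. The sequence is the RefSeq promoter of mouse build GRCm38.p6, from 250 bases before to 50 after the annotated start, at chr17:78882523-78882822 on the minus strand, written 5′ to 3′. Capitals mark, in order, a match to the gamma-activated site (GAS, searched as TTCNNNGAA) and the ISRE match (searched on both strands as GAAA, any pair of bases, GAAA), which do not overlap.
Eif2ak2: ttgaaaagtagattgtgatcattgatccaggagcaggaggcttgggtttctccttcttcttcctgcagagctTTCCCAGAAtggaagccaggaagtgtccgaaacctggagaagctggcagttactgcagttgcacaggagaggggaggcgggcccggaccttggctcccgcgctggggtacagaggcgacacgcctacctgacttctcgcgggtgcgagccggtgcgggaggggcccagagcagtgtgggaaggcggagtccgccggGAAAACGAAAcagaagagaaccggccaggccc
The ISRE match lay at bases 19 to 28 after the start, counting the start as 1, and the GAS match at bases -178 to -170. The ISRE letters were found in 3.44% of 32851 RefSeq promoters of this length and the GAS letters in 8.30%. Promoters were matched for 9 of the 10 members, all but Ppp1r15b.

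Among the other members a second ISRE match stood in the promoter of Ppp1r15a at bases -220 to -211, and a GAS match in that of Eif2ak3 at bases -129 to -121. The element to which ATF4 binds with C/EBP partners was searched as TGATGNAA on both strands. Its letters stood in 3.97% of promoters, and in those of 2.64% of tested genes with an entry. It was matched in Chac1 at bases -193 to -186 and in Trib3 at bases 15 to 22, in both on the opposite strand. These stretches, with 10 bases on each side and the match in capitals, are given so that they can be compared with the response of each gene below.
Ppp1r15a (ISRE letters): aaaataaaagGAAAGGGAAAtggcacggta
Eif2ak3 (GAS letters): ttggccgtcgTTCCCGGAAaagggccgga
Chac1 (ATF4 element): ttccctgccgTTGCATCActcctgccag
Trib3 (ATF4 element): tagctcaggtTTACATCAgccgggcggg
The core TGACGT of the cAMP response element stood in 7.51% of promoters, and in those of 13.8% of tested genes with an entry. It was found in Ppp1r15a and in 1 of the 2 Eif2ak4 promoters. A match is a description of letters and does not show that a factor was bound.

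The libraries held between 18528685 and 24817342 gene counts. Replicates were not copies of each other: the chi-square statistic of their counts averaged 34.2 a gene between the untreated libraries and 12.1 between the treated ones. All 10 fibroblast markers, among them Col1a1, Vim and Pdgfrb, were tested and 1, Twist1, was called higher. Their levels summed to 5194 and 5698 CPM (counts scaled to the TMM-adjusted library size) untreated and to 7072 and 6648 CPM after IFN-beta. Markers of macrophages and leukocytes summed to 16.5 to 23.5 CPM, with Cd3e at 0 in every library and 0 of 5 tested genes called. Most of that sum came from Cd14, Csf1r and Lyz2. Cd14 had 7.48 and 8.68 CPM untreated and 7.51 and 8.97 CPM treated, and Csf1r 5.15 and 5.19, then 6.84 and 4.38 CPM. Lyz2 had 8.52 and 2.54, then 3.81 and 1.36 CPM, higher in replicate 1 of both groups. Markers of epithelium were low (0.468 to 1.02 CPM over 6 genes). Muscle and neural markers summed to 65.6 and 117 CPM untreated and to 86.2 and 105 CPM treated, nearly all from Nes (60.8 and 112, then 82.4 and 100.4 CPM), with Myod1 and Myog at 0 in every library. Endothelial markers summed to 0.936 and 1.06 CPM untreated and to 3.14 and 2.02 CPM treated over 5 genes, with Emcn at 0 in every library and Cdh5 alone called higher (0.166 ± 0.0874 to 1.15 ± 0.274 CPM, SD, n = 2), though not by DESeq2. Their part in the results was not tested.

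PKR transcript rose about 13-fold after 6 h of IFN-beta, while no change was called for the other 3 eIF2alpha kinases, for the phosphatase subunits or for ATF4 and its targets. In all, 1 of 10 members was called higher and 0 lower by edgeR's quasi-likelihood test at a Benjamini-Hochberg adjusted p below 0.05, against 5.23% of all tested genes called in either direction (4.73% higher and 0.495% lower). At an unadjusted p below 0.05 there were 2 members higher and 0 lower, against 18.2% of all tested genes. DESeq2 called 1 member higher and 0 lower (4.46% and 0.648% of all genes), and limma-voom likewise 1 and 0 (4.82% and 0.453%). The groups did not overlap for 5 of the 10 members, 4 higher and 1 lower, near the share in all tested genes (50.7%, of which 23.9% higher and 26.8% lower). The members' median log2 fold change was 0.17 against -0.02 for all tested genes. Of their values 8 of 10 lay above 0, against 47.4% of all tested genes. With upper quartile scaling 7 lay above 0, and with total library size scaling 5. These scalings moved all genes down, to medians of -0.09 and -0.16 in that order. The members' medians were then 0.09 and 0.02.

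**Figure D1:**
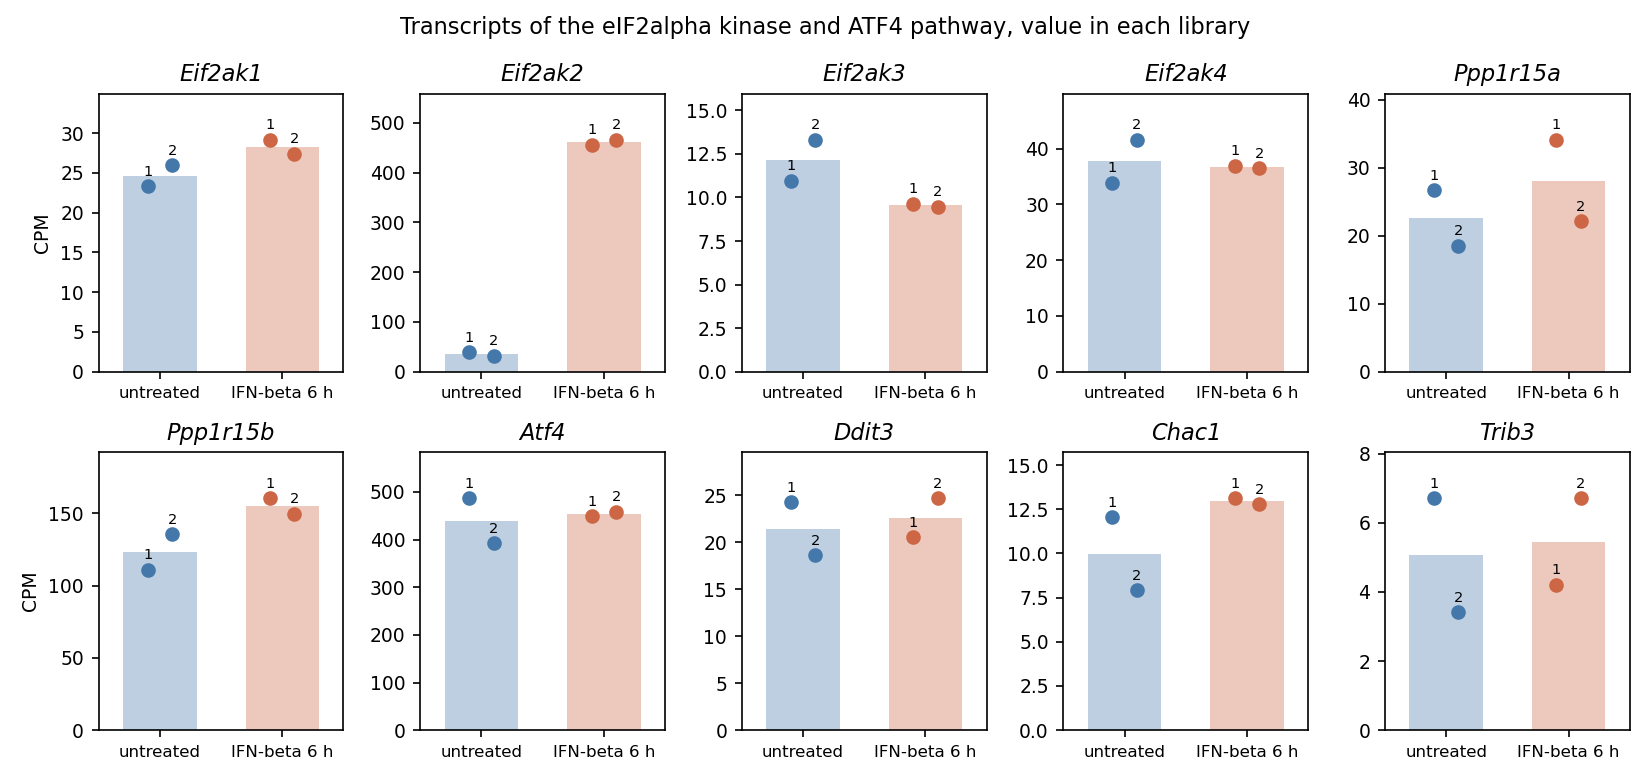
Level of each of the 10 members in CPM (vertical axis from 0, a scale of its own in each panel) in the untreated and IFN-beta libraries; points are libraries marked with their replicate number and bars are group means. Eif2ak2 went from 31.7 and 39.4 CPM to 456 and 466 CPM, while points of the 2 groups lie close together or overlap in the other panels.

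Eif2ak2, the kinase that binds double-stranded RNA, stood at 39.4 and 31.7 CPM in the untreated libraries and at 456 and 466 CPM in the treated ones, from 759, 836, 8134 and 9246 counts. Both treated libraries were far above both untreated ones, and the transcript was well detected before the cytokine was given. The log2 fold change was 3.70 ± 0.15 (SE, adjusted p = 1.02e-07, edgeR), a 12.97-fold rise with a 95% interval of 10.2 to 16.4. In size it ranked 145 of 12128 tested genes, and 61 by p-value. Under all 12 alternatives of scaling, filter, test, block and left-out library the log2 value stayed between 3.55 and 3.89 and the call held.

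Gm6548, annotated as a transcribed pseudogene that overlaps Eif2ak2 in the RefSeq table, was called higher too. It had 11.1 and 9.40 CPM untreated and 109 and 111 CPM treated (log2 fold change 3.43 ± 0.15 SE, adjusted p = 1.53e-07, edgeR). The strand setting of the counting is not given in the sources used here, so reads of these overlapping features cannot be assigned with certainty. The gene was singled out after its values were seen. The neighbours on either side were Gpatch11, at 24.6 ± 2.21 and 18.3 ± 1.40 CPM (SD, n = 2, not called, adjusted p = 0.196), and Sult6b1, a low sulfotransferase family gene that was called higher, from 0.187 ± 0.103 to 1.13 ± 0.177 CPM (5 and 3 counts against 18 and 25, adjusted p = 0.0143). The Sult6b1 call was lost with DESeq2 (adjusted p = 0.0741) and without IFN-beta replicate 2 (0.0624).

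The 5 called genes nearest to Eif2ak2 in pattern, by Euclidean distance of centred log2 CPM over the 4 libraries, were Irf9 (distance 0.10), Herc6 (0.10), Sp140 (0.12), Tnfsf10 (0.15) and Fam46a (0.15). Irf9, an interferon regulatory factor family gene, had a log2 fold change of 3.77 and Herc6, a ubiquitin ligase family gene, one of 3.65. With another prior count, 4 of the 5 were the same. None of the 4 among them with a RefSeq promoter (Fam46a had no entry) held the ISRE letters as searched. A distance over 4 libraries in 2 groups rests mainly on the size of the rise.

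**Figure D2:**
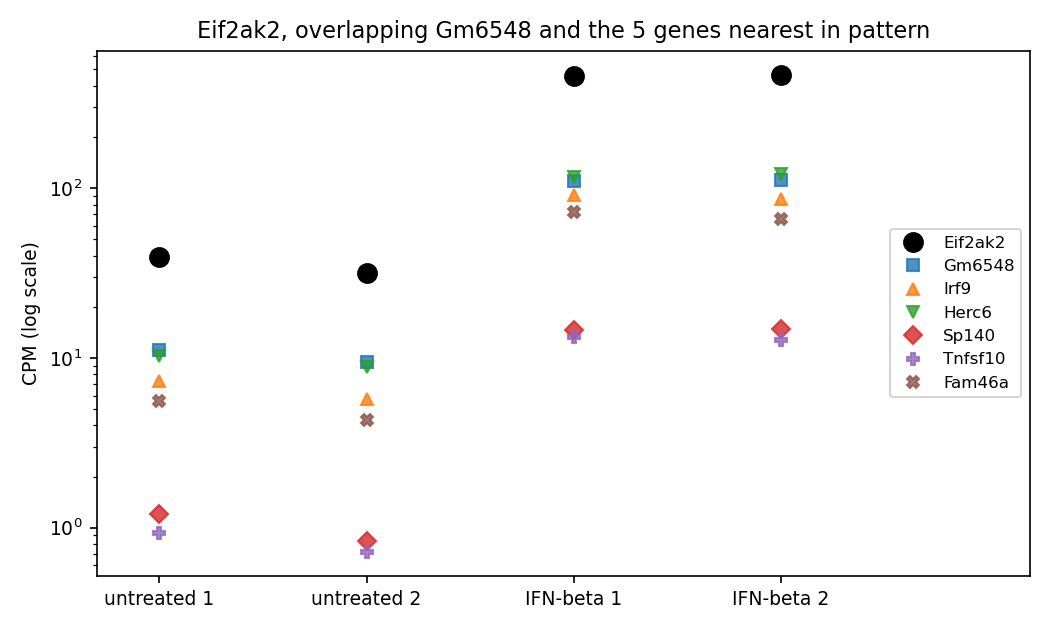
Levels in CPM (log scale) of Eif2ak2, of the overlapping Gm6548 and of the 5 genes nearest in pattern, in each of the 4 libraries; each symbol is a gene. The genes differ in level, and each is higher in both IFN-beta libraries by a log2 fold change between 3.43 and 3.98.

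The other 3 kinases showed no called change. Eif2ak1 (HRI) was at 23.3 and 25.9 CPM untreated and at 29.1 and 27.4 CPM treated. Its groups did not overlap, but the difference was small, with a log2 fold change of 0.20 ± 0.15 (SE, adjusted p = 0.520, edgeR) and a 95% interval of 0.912 to 1.44 as a fold. With total library size the log2 value was 0.05. Eif2ak3 (PERK) was at 10.97 and 13.3 CPM untreated and at 9.64 and 9.47 CPM treated, so that both treated libraries were below both untreated ones. Its log2 value was -0.35 ± 0.18 (adjusted p = 0.356), with a fold between 0.591 and 1.04, and was -0.20 without untreated replicate 2. Eif2ak4 (GCN2) was at 33.9 and 41.6 CPM untreated and at 36.9 and 36.5 CPM treated, with the treated values inside the untreated range. Its log2 value was -0.04 ± 0.15 (adjusted p = 0.911), with a fold between 0.771 and 1.22. The upper ends of these 3 intervals (1.44, 1.04 and 1.22) lie well below the lower end for Eif2ak2 (10.2). The differences between the kinases' responses were not tested.

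**Figure D3:**
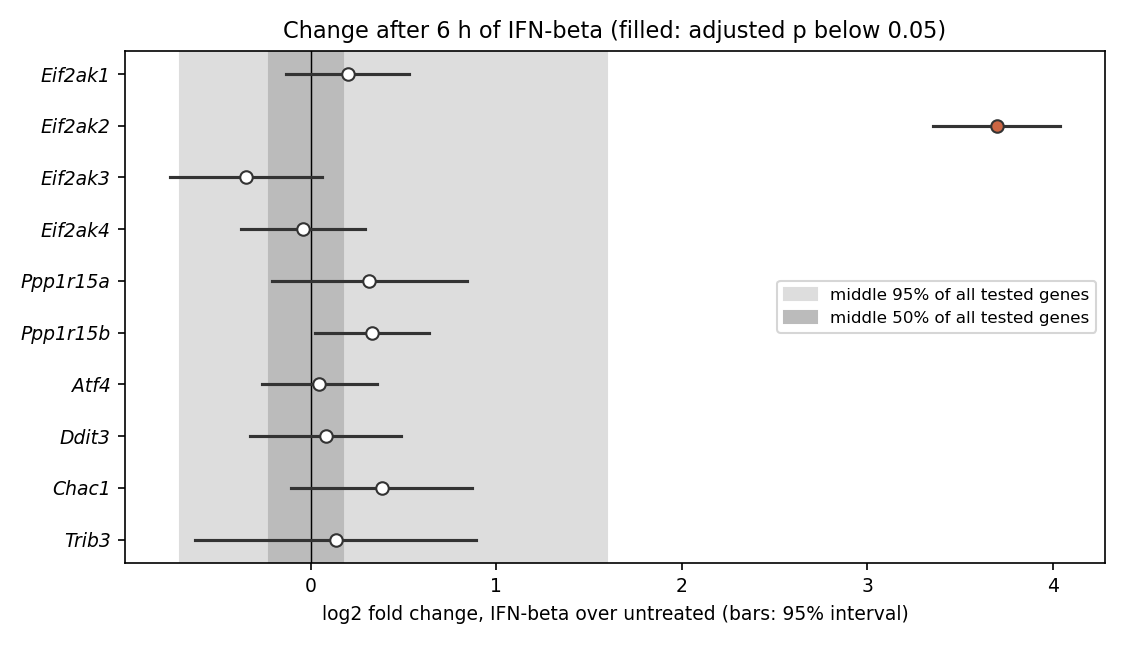
Log2 fold change of each member after 6 h of IFN-beta (points; filled where called) with its 95% interval (bars), over bands that hold the middle 50% and the middle 95% of all tested genes. Eif2ak2 at 3.70 lies outside both bands, and the other 9 values lie between -0.35 and 0.38.

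The 2 subunits that bring protein phosphatase 1 to eIF2alpha did not pass the test either. Ppp1r15b (CReP), the constitutive subunit, had 111 and 136 CPM untreated and 160 and 150 CPM treated. Its groups did not overlap, and it was the other member with an unadjusted p below 0.05. The log2 fold change was 0.33 ± 0.14 (SE, adjusted p = 0.242, edgeR), with a fold between 1.02 and 1.55. Without untreated replicate 2 it was called (log2 value 0.48, adjusted p = 0.0020), in a fit that called 15.3% of all tested genes higher. The value was 0.22 without untreated replicate 1 (adjusted p = 0.389) and 0.18 with total library size (0.441).

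Ppp1r15a (GADD34), the stress-induced subunit, had 26.7 and 18.5 CPM untreated and 34.1 and 22.1 CPM treated. The groups overlapped, and the first replicate was above the second in both groups, by 0.52 and 0.62 on the log2 scale, where counting error alone gives an SD of 0.09. The log2 fold change was 0.32 ± 0.23 (SE, adjusted p = 0.516), with a fold between 0.867 and 1.79. The value was 0.62 without untreated replicate 1 and turned to -0.03 without IFN-beta replicate 1. Ppp1r15a was called in 1 of 12 alternatives, that without untreated replicate 1.

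Atf4, the central factor of the pathway, was abundant and gave the narrowest interval among the ATF4 branch. It had 487 and 392 CPM untreated and 449 and 459 CPM treated, from 8006 or more counts in each library. The untreated libraries lay on both sides of the treated ones. The log2 fold change was 0.05 ± 0.14 (SE, adjusted p = 0.896), with a fold between 0.832 and 1.28. Because ATF4 is largely controlled at translation, its transcript level does not show how much protein was made.

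Of the targets, Ddit3 (CHOP), a factor linked to cell death under lasting stress, had 24.3 and 18.6 CPM untreated and 20.6 and 24.7 CPM treated. The groups overlapped, and the log2 fold change was 0.08 ± 0.18 (SE, adjusted p = 0.856), with a fold between 0.798 and 1.40. Chac1, an enzyme that breaks down glutathione, had 12.1 and 7.92 CPM untreated and 13.1 and 12.8 CPM treated. Both treated libraries were above both untreated ones, untreated replicate 1 by little. The log2 fold change was 0.38 ± 0.22 (adjusted p = 0.392), with a fold between 0.930 and 1.83. Without untreated replicate 1 the value was 0.73 and was called (adjusted p = 0.0043), in a fit that called 6.91% of all tested genes higher, and without untreated replicate 2 it was 0.10.

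Trib3, a pseudokinase that restrains ATF4 and AKT signalling, was the lowest and most variable of the members. It had 6.70 and 3.41 CPM untreated and 4.203 and 6.70 CPM treated, from 129, 90, 75 and 133 counts. The replicates of each group lay far apart, by 0.97 and 0.67 on the log2 scale, against an SD of 0.20 and 0.21 from counting error. The log2 fold change was 0.13 ± 0.34 (SE, adjusted p = 0.874), with a fold between 0.650 and 1.85. It turned from 0.71 without untreated replicate 1 to -0.29 without untreated replicate 2.

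The spread between libraries was as large as the change for most members. The gap between replicates of a group was larger than the log2 fold change in 6 of the 10 members, near the 64.4% of all tested genes. Untreated replicate 1 was above untreated replicate 2 for Eif2ak2, Ppp1r15a, Atf4, Ddit3, Chac1 and Trib3, by 0.31 to 0.97 on the log2 scale, and below it for the other 4. Over all tested genes, 49.0% were higher in that replicate. Of the ATF4 targets of amino acid supply 11 of 21 were higher in untreated replicate 1, and of the other ATF4 and CHOP targets 9 of 17.

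**Figure D4:**
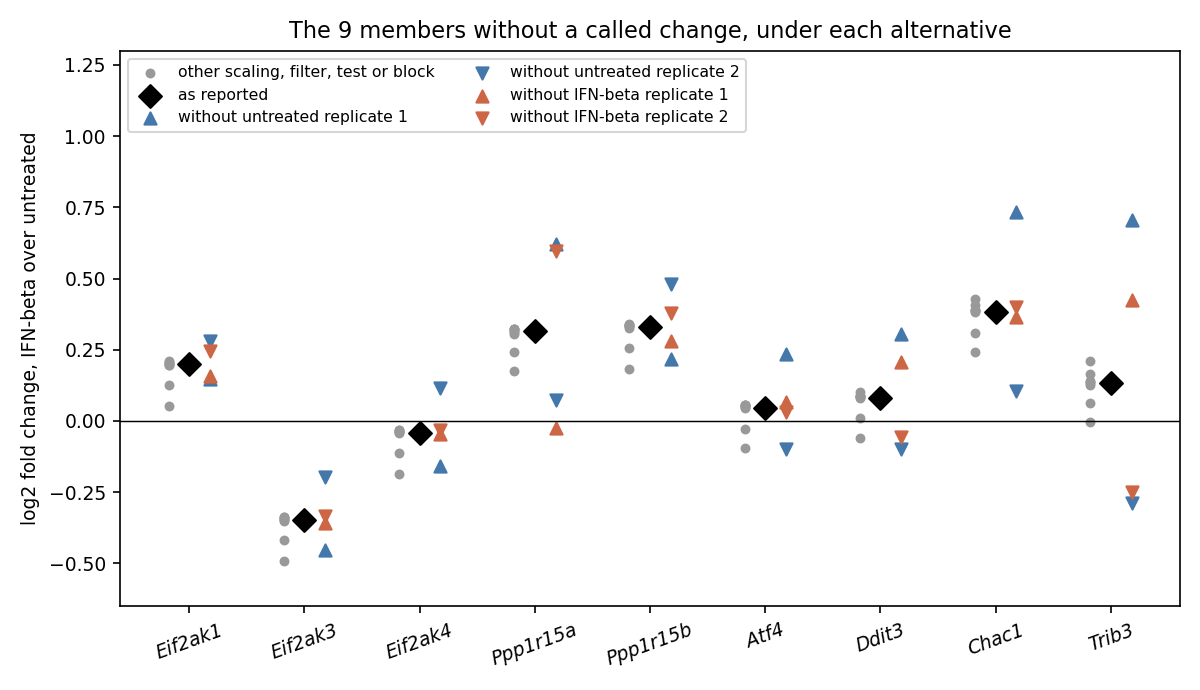
Log2 fold change of the 9 members without a called change: as reported (diamonds), with each library left out (triangles), and under other scalings, filters, tests and the block (grey points). Trib3 spans from -0.29 to 0.71 and Ppp1r15a from -0.03 to 0.62, and the 2 untreated libraries give the ends of the range for Chac1, Trib3, Atf4 and Ddit3.

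The rest of the pathway was read from 8 lists. Their counts stand against all tested genes, of which edgeR called 5.23% in either direction. At an unadjusted p below 0.05 the share of all tested genes was 18.2%. Of eIF2 and eIF2B subunits and their partners, 0 of 13 tested genes were called by edgeR in either direction, 1 had an unadjusted p below 0.05 (Abcf1), and DESeq2 and limma-voom called 0. The median log2 fold change was 0.02. Eif2s1, which encodes eIF2alpha itself, had 438 and 406 CPM untreated and 373 and 385 CPM treated (log2 fold change -0.16 ± 0.12 SE, adjusted p = 0.540). Abcf1, a partner of eIF2 at the ribosome, was at 0.38 ± 0.16 (adjusted p = 0.247), and Abce1, which recycles ribosomes, at -0.25 and Eif2a, an alternative initiation factor, at -0.27. These 3 values moved with the untreated library left out. Without untreated replicate 1 they were 0.20, -0.12 and -0.024, and without untreated replicate 2 they were 0.62, -0.35 and -0.46. Each of these 3 genes was called in 1 of 12 alternatives.

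Of 19 tested regulators of the kinases 1 rose and 0 fell, with a median of -0.06, while 4 in each direction had an unadjusted p below 0.05 and the other tools called 0 lower. The gene that rose was Adar, which edits double-stranded RNA and so limits activation of PKR. Adar had 21.3 and 29.6 CPM untreated and 189 and 175 CPM treated, a log2 fold change of 2.83 ± 0.17 (SE, adjusted p = 2.11e-06). Nck1, an adaptor that assists dephosphorylation of eIF2alpha, was at -0.44 ± 0.13 (adjusted p = 0.109). Nck1 was called in 2 of 12 alternatives, with total library size (-0.58, edgeR adjusted p = 0.0366) and without untreated replicate 2 (-0.46). Oma1, the mitochondrial protease upstream of HRI, was at 0.51 ± 0.19 (adjusted p = 0.182). Among the phosphatase 1 catalytic subunits with Smarcb1 and Actb, which bind PPP1R15A, 0 of 5 were called by edgeR, at an unadjusted p below 0.05 or by the other tools. Actb was at 0.36 (0.25 without untreated replicate 1 and 0.51 without untreated replicate 2), Ppp1cb at -0.23 and Ppp1cc at -0.21. Actb was called in 1 of 12 alternatives, and Ppp1cb and Ppp1cc in 0.

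Factors related to ATF4 gave 1 call higher and 0 lower among 15, with a median of 0.10. At an unadjusted p below 0.05, 3 were higher and 1 lower, DESeq2 called 2 higher and 0 lower, and limma-voom 1 and 0. Batf2, a small leucine zipper factor known as interferon-inducible, had 0 counts in both untreated libraries and 10 and 17 after IFN-beta, at least 10.9-fold higher against a floor of 3 counts over the untreated pair. It was too low to be tested under the stricter filter and without IFN-beta replicate 2, and was called in the other 10 alternatives. Atf3, a stress-induced repressor, had 7.48 and 5.65 CPM untreated and 10.4 and 11.1 CPM treated (log2 fold change 0.72 ± 0.20 SE, adjusted p = 0.0865), and Jun was at 0.61 ± 0.16 (adjusted p = 0.0638). Both missed the threshold and passed it in some alternatives, Atf3 in 4 of 12 and Jun in 5 of 12.

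ATF4 targets of amino acid supply and translation gave 0 calls among 21, with a median of 0.06, 1 gene at an unadjusted p below 0.05 and 0 calls with DESeq2 or limma-voom. Asns, asparagine synthetase and a classical ATF4 target, had 148 and 147 CPM untreated and 140 and 168 CPM treated. The amino acid transporter genes Slc3a2 (0.40 ± 0.14 SE, adjusted p = 0.167) and Slc7a5 (0.44 ± 0.21, adjusted p = 0.303) and the serine pathway gene Shmt2 (0.32 ± 0.16, adjusted p = 0.318) had the smallest p-values. Without untreated replicate 2 the 3 values were 0.57, 0.85 and 0.56 in that order, and without untreated replicate 1 they were 0.27, 0.14 and 0.14. Each of these 3 genes passed the threshold in 1 of 12 alternatives. Of 17 tested targets in signalling and cell fate 1 rose and 0 fell, with a median of -0.003, and the counts were the same at an unadjusted p below 0.05, with DESeq2 and with limma-voom. Bcl2l11 (BIM), a promoter of apoptosis, went from 6.86 and 7.74 CPM to 15.4 and 14.1 CPM. Its log2 fold change was 1.01 ± 0.18 (SE, edgeR adjusted p = 0.0078), and the call was lost without IFN-beta replicate 1 (0.0524). Sesn2, a sestrin, was at 0.40 ± 0.22 (adjusted p = 0.373). Dusp1, a phosphatase of MAP kinases, was at 0.47 ± 0.38 (adjusted p = 0.551). It had 54.3 and 26.1 CPM untreated and 77.7 and 33.8 CPM treated, with the first replicate above the second in both groups. It passed the threshold in 3 of 12 alternatives.

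In the ATF6 and XBP1 branch of the unfolded protein response, 0 of 28 tested genes were called, with a median of 0.07 and 2 higher and 0 lower at an unadjusted p below 0.05. Hspa5 (BiP), the main chaperone of the endoplasmic reticulum, had 1554 and 1385 CPM untreated and 1482 and 1504 CPM treated. Syvn1, a ubiquitin ligase of the endoplasmic reticulum, had 4.99 and 8.38 CPM untreated and 13.8 and 12.6 CPM treated. Its adjusted p of 0.0517 stood just outside the threshold (log2 fold change 0.96 ± 0.24 SE), it was the 1 gene that DESeq2 and limma-voom each called, and it passed in 8 of 12 alternatives. Wfs1 was at 0.99 ± 0.29 (adjusted p = 0.101) and Sec61b at -0.35 ± 0.16 (adjusted p = 0.275). Without untreated replicate 2 they were at 1.16 and -0.53, and without untreated replicate 1 Sec61b was at -0.13. Wfs1 passed the threshold in 3 of 12 alternatives and Sec61b in 1 of 12.

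Of 15 stress granule genes 1 rose and 0 fell, with a median of 0.14. At an unadjusted p below 0.05, 4 were higher and 0 lower, DESeq2 called 2 higher and 0 lower, and limma-voom 1 and 0. G3bp2, a scaffold of the granules, went from 263 and 265 CPM to 405 and 383 CPM (log2 fold change 0.58 ± 0.12 SE, adjusted p = 0.0193). Its call was lost under total library size scaling (0.0547) and without IFN-beta replicate 1 (0.296) or 2 (0.109). Fmr1 was at 0.45 ± 0.12 (adjusted p = 0.0643) and Zc3h7b at 0.48 ± 0.15 (adjusted p = 0.119). Fmr1 ran from 0.31 to 0.51 over the alternatives and passed the threshold in 4 of 12. Zc3h7b ran from 0.33 to 0.68 and passed in 2 of 12.

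**Figure D5:**
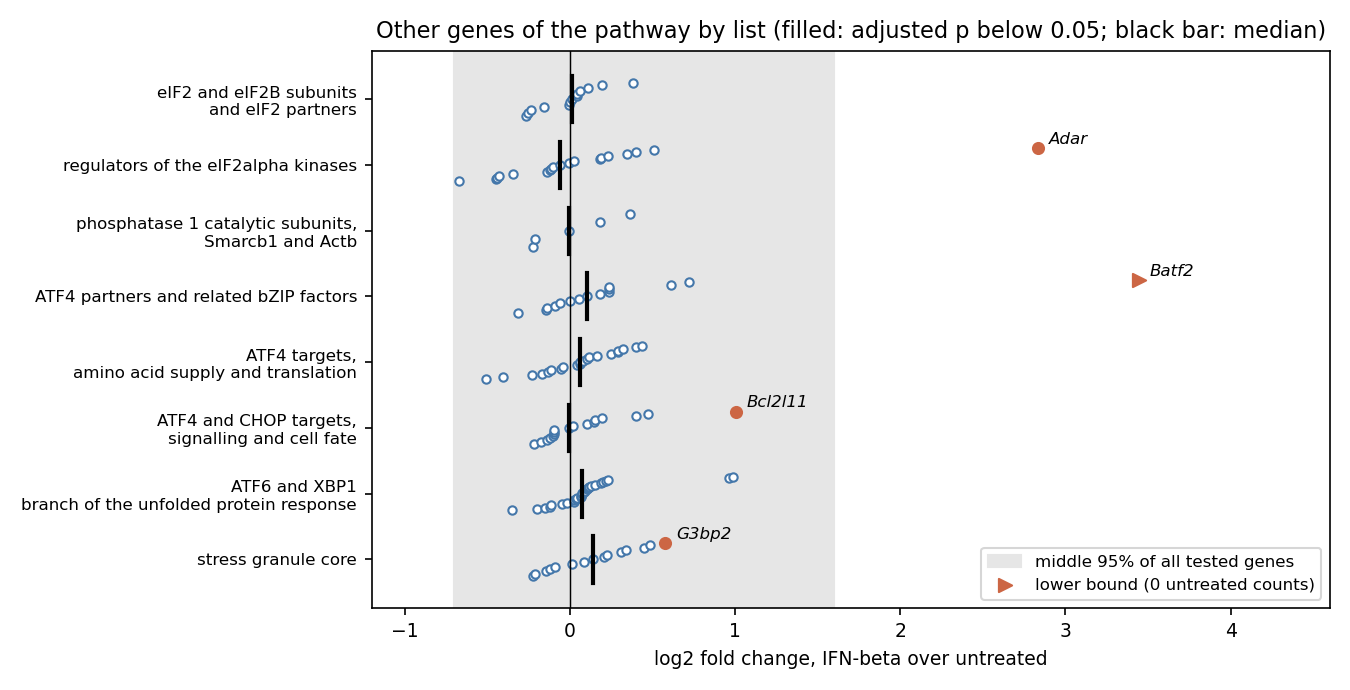
Log2 fold change of the tested genes of the 8 pathway lists (horizontal axis), 1 point per gene, filled where called; the black bar is the list's median and the grey band holds the middle 95% of all tested genes. Adar, Bcl2l11 and G3bp2 are the called genes, with Batf2 drawn at its lower bound, and each list's median lies between -0.06 and 0.14.

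Set beside 12 other interferon-induced genes that sense or answer double-stranded RNA, all of which rose (the list was chosen as interferon-induced, and its direction is no independent result), PKR had a small fold and a high starting level. The smallest log2 fold change in that list was 2.83, for Adar, and the median was 6.82. Ifih1 (MDA5) was at 7.05 ± 0.18 (SE), Ddx58 (RIG-I) at 4.87 ± 0.15, Tlr3 at 5.92 ± 0.20, Oasl2 at 10.38 ± 0.33 and Ifit1 at 10.60 ± 0.22, against 3.70 ± 0.15 for Eif2ak2. Summed over the 12 genes, the untreated level was 40.3 and 46.0 CPM, beside 39.4 and 31.7 CPM for Eif2ak2 alone. These levels are per library and not per transcript length.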

How the data were processed

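For each RNA library the authors deposited raw counts of reads by gene symbol. Trizol RNA went into TruSeq libraries, per the labels' protocols. The tools named in the submitters' processing notes are TopHat2 2.0.13 and HTSeq 0.7.2, with build mm9. The annotation and strand setting are not given in the sources used here. Summary lines that name no gene were left out (38.7 to 42.7% of records were assigned to genes).

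The test was that of edgeR 4.0.16 under R 4.3.3 (quasi-likelihood F test, TMM, group as the only term, minimum count 10 and total 15), adjusted over all genes tested. The SE was taken as the log2 fold change over the square root of F, and 95% intervals use it with a t quantile. CPM were computed from the counts and TMM-adjusted library sizes, and log2 CPM with a prior count of 2. The procedure was tested on simulated data.

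The members and the 14 lists (190 symbols, 185 found) were chosen with earlier results of these data known. The text names the members, from each pathway list the called genes, up to 5, filled up to 3 with the smallest p-values, the 5 genes nearest to Eif2ak2 and its neighbours. Eif2s1, Asns and Hspa5 were added for their roles, and Cdh5, Twist1, Nes, Gm6548, Plekha4 and Usp42 after their values were seen. Promoters came from RefSeq GRCm38.p6, not the build of the counts. Alternatives were other scalings (DESeq2 size factors, total library size, upper quartile), filters, DESeq2 1.42.0, limma-voom 3.58.1, the replicate number as a block, a prior count of 0.5, and leaving out single libraries, where the lone library of a group is assumed to vary like the others.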

Additional observations from a re-analysis of the deposited data

How the results depend on the processing

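The Eif2ak2 call held under all 12 alternatives, and 4 of the 80 member values with all libraries kept turned direction. With total library size the log2 values were -0.10 for Atf4, -0.059 for Ddit3, -0.0048 for Trib3, -0.080 for Asns and -0.12 for Hspa5, and with upper quartile scaling -0.027 for Atf4, -0.0092 for Asns and -0.050 for Hspa5. With a library left out, values that turned ran from -0.16 to 0.12 for Eif2ak4, -0.025 to 0.62 for Ppp1r15a, -0.10 to 0.23 for Atf4, -0.099 to 0.31 for Ddit3, -0.29 to 0.71 for Trib3, -0.25 to 1.11 for Dusp1, -0.072 to 0.19 for Asns and -0.058 to 0.13 for Hspa5. The cause was not tested. Of all named genes, 9 of 632 values lost a call and 43 gained one.

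The number of members called higher ran from 1 to 3 with a library left out and was 1 in every other alternative. Over all genes, 574 were called higher and 60 lower (90.5% higher). The counts were 863 and 381 without a count filter, 478 and 350 (57.7% higher) with total library size, and 520 and 128 (80.2% higher) with upper quartile scaling. With a library left out they ran from 470 to 1885 higher and from 24 to 1728 lower, the largest without untreated replicate 2. The labels number the replicates without saying what a number marks, and deviations of same-numbered libraries were not correlated (r = -0.03 across genes). With the replicate block 692 genes were higher and 155 lower, and Eif2ak2 stayed at 3.70.

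In the lists, kinase regulators had 1 gene lower with total library size and 1 without a count filter. Factors related to ATF4 had 3 higher without a count filter, 0 with the stricter filter (Batf2 was not tested), 2 with DESeq2 and 3 with the replicate block. Signalling and cell fate targets had 2 higher without a count filter. The ATF6 and XBP1 branch had 1 higher with DESeq2 size factors, 1 with DESeq2, 1 with limma-voom, 2 without a count filter and 2 with the block. Stress granule genes had 0 higher with total library size, 3 without a count filter and 2 with DESeq2. With a library left out, numbers higher ran from 0 to 1 for eIF2 genes, 1 to 5 for kinase regulators, 0 to 1 for phosphatase 1 genes, 0 to 4 for ATF4-related factors, 0 to 5 for amino acid targets, 0 to 2 for signalling targets, 0 to 4 for the ATF6 and XBP1 branch and 0 to 7 for stress granule genes. Numbers lower ran from 0 to 2, 0 to 4, 0 to 0, 0 to 3, 0 to 2, 0 to 1, 0 to 1 and 0 to 1 in that order. Over all tested genes the numbers called with a library left out varied widely as well, as given above, and were largest without untreated replicate 2. The list counts from those fits were not compared with the share of all genes called in the same fit. They therefore do not show a response, or an instability, of any list of its own. The SE of the log2 fold change limits what these libraries show, from 0.14 for Ppp1r15b to 0.34 for Trib3 among the members.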

Other observations

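Genes next to the members in the RefSeq order were read as well, as a description. Of 20 flanking protein-coding genes 15 were tested. Against 4.73% higher and 0.495% lower of all tested genes, 3 of them were called higher and 0 lower. Besides Sult6b1 beside Eif2ak2, these were Plekha4 beside Ppp1r15a, at 0.260 and 0.303 CPM untreated and 4.48 and 6.50 CPM treated (log2 fold change 4.25 ± 0.37 SE, edgeR adjusted p = 4.18e-05), and Usp42, a ubiquitin protease gene beside Eif2ak1, at 12.9 and 18.4 CPM untreated and 32.3 and 28.1 CPM treated (0.94 ± 0.19 SE, adjusted p = 0.0180, but 0.0508 with total library size). The members they flank, Ppp1r15a and Eif2ak1, were not called. Both genes were singled out after their values were seen.

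The ISRE letters searched above stood in the promoter of 76 of 416 genes called higher that have a RefSeq promoter entry (18.3%) and of 336 of 9079 tested genes (3.70%). Eif2ak2 is among the first and Ppp1r15a only among the second.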
